A study of Bos taurus with 40 samples.

Results

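The transcripts described here are those abundant in bovine oocytes and almost without reads in the cumulus cells that surrounded oocytes of the same study. They were chosen as Ensembl rows of the count tables with a mean of at least 200 CPM (counts per 1000000 of the library total) over 4 whole oocytes and under 1 CPM over 8 cumulus libraries. The rule found 52 of 27607 Ensembl rows, among 59051 rows in all, and 925 Ensembl rows reached the oocyte threshold. Whole-oocyte and cumulus values chose the members and are given as description only. None of the 52 identifiers could be paired with a gene symbol here, so members are called by their rank in whole oocytes, where rank 1 has the highest mean CPM.

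In the study, granulosa cells were collected from single follicles, and the oocyte of each follicle was matured in vitro and biopsied. The blastocyst group holds oocytes that later reached the blastocyst stage, and the cleavage group holds those that arrested at cleavage. RNA libraries numbered 4 per fate for granulosa cells, cumulus cells and ooplasm biopsies. A further 4 biopsies, numbered 2, 3, 6 and 16, were matched by number to 4 whole oocytes whose fate the labels do not give. All samples are labelled diploid, and the labels name no drug or genetic change. Follicles carry labels such as B20 or D27, which tie a granulosa library to the biopsy of the same follicle. The cumulus columns give the fate but not the sample number. Whether the samples of a group came from different animals is not stated, so a p-value here speaks only of the spread among these libraries.

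A growing oocyte transcribes and stores messenger RNA and then falls largely silent, so that maturation, fertilization and the first cleavages run on this maternal stock until the embryonic genome is switched on. Many stored messages are kept with short poly(A) tails and are lengthened, translated or destroyed in a set order. Cumulus cells touch the oocyte through fine projections and granulosa cells line the follicle wall. Both are somatic cells of the follicle.

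Library totals, in units of 1000000 counts, lay between 7.96 and 23.8. Of 274 symbols on lists of oocyte and follicle cell genes, 15 had a row that could be found by symbol. The lists for granulosa, expanded cumulus, theca and blood cells had 0 rows found, so these tissue labels were not checked by markers. The tables differ in one respect that touches comparisons across them. Of 22227 NONCODE rows, 9888 had a count in the fate-grouped biopsies and 8430 in whole oocytes, against 6 in granulosa and 3 in cumulus libraries. Such rows took 4.21 to 9.27% of counts in ooplasm libraries, and whether reads of the members were counted under them there was not tested. With totals that leave them out the rule found 53 rows, the 52 among them. From the oocyte list H1FOO, the oocyte linker histone, was found, at 724 ± 205 CPM in whole oocytes (SD, n = 4) and 0.0137 CPM in cumulus cells.

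The members took 6.41 ± 1.38% of all counts in whole oocytes, 6.12 ± 0.382% in the matched biopsies, 5.35 ± 0.255% in biopsies of the blastocyst group and 5.45 ± 0.522% in biopsies of the cleavage group (SD, n = 4 each). In cumulus libraries their summed level was 7.78 to 10.03 CPM, from 62 to 90 counts. A few rows carried much of the sum, since the first 4 made up 51.6 to 72.2% of it in the 4 whole oocytes. CPM are not divided by transcript length, so ranks order reads and not numbers of molecules.

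Rank 1 (ENSBTAG00000034346) stood at 6918, 36973, 20265 and 15100 CPM in whole oocytes 2, 3, 6 and 16. Its 8 fate-grouped biopsies lay closer together, between 9507 and 15170 CPM. Rank 2 (ENSBTAG00000037710) stood at 9277 ± 1044 CPM in whole oocytes (SD, n = 4), and its values of 8148 to 10276 CPM were more even than those of rank 1. Ranks 3 and 4 stood at 6207 ± 1673 and 5187 ± 1034 CPM. Ranks 5 to 10 followed at means of 1852, 1302, 1118, 869, 819 and 776 CPM. In all, 7 members had a mean of 1000 CPM or more, 19 lay from 400 to 1000 CPM and 26 from 200 to 400 CPM. The 3 members just inside the oocyte threshold had means of 204, 207.5 and 207.7 CPM, and the 3 rows just outside had 199, 185 and 184 CPM. At the cumulus threshold the 3 members nearest to it had 0.859, 0.772 and 0.730 CPM and the 3 rows beyond it 1.04, 1.04 and 1.14 CPM. Cumulus counts were 0 in all 8 libraries for 11 members, and the highest count of any member in a cumulus library was 13.

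**Figure D1:**
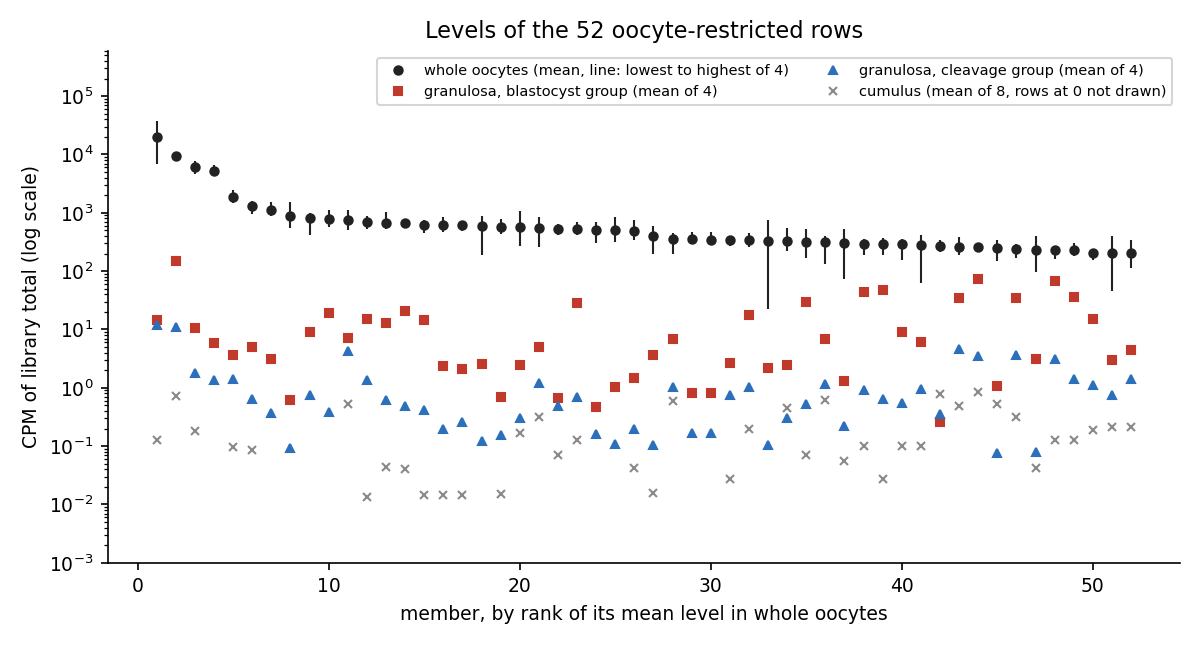
Mean CPM of the 52 members (log scale) by rank in whole oocytes, with whole oocytes as black circles (line from the lowest to the highest of 4), granulosa cells of the blastocyst group as red squares and of the cleavage group as blue triangles (means of 4), and cumulus cells as grey crosses (mean of 8; the 11 members at 0 are not drawn). Whole-oocyte means run from 19814 down to 204 CPM, while granulosa levels do not fall along this order.

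Some members had nearly the same counts as another row in all 16 libraries of biopsies and oocytes, which bears on how many separate transcripts the 52 rows stand for. Ranks 29 and 30 differed by a count ratio of 0.984 to 0.998, and the counts of H1FOO were 1.02 to 1.12 times those of rank 12. LOC100848540 ran at 1.05 to 1.15 times rank 16 and LOC100139360 at 1.06 to 1.19 times rank 21. Whether these pairs are overlapping annotations of 1 gene was not tested, and each level is uncertain where reads could have been split or counted under both rows. In granulosa cells the pairs behaved unlike each other. Ranks 29 and 30 had 46 counts each over the 8 libraries, and rank 12 had 772 beside 887 for H1FOO. Rank 16 had 115 counts beside 892 for its partner and rank 21 had 334 beside 2879, so those rows no longer ran together there.

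Biopsies held the members at levels near those of the whole oocyte of the same number. The ratio of the biopsy mean to the oocyte mean had a median of 1.01 over the 52 members, from 0.665 for rank 36 to 2.27 for rank 13, and exceeded 1 for 28 members. The summed level in the biopsy was 1.14, 0.798, 0.958 and 1.02 times that of the oocyte for numbers 2, 3, 6 and 16. These ratios are description with no test, because the oocyte values chose the members.

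Rank 13 stood at 815, 1414, 2367 and 1508 CPM in biopsies 2, 3, 6 and 16 and at 613, 539, 523 and 1020 CPM in their oocytes. Each biopsy lay above its own oocyte, by a factor of 1.33 to 4.52. Rank 24 was likewise higher in every biopsy (826, 1173, 980 and 655 CPM) than in its oocyte (686, 309, 446 and 573 CPM), as were ranks 23 and 43. These 4 members compare with 9.35% of 7002 Ensembl rows of at least 10 CPM in this set that were higher in all 4 biopsies. Ranks 15, 32, 35 and 48 were lower in all 4 biopsies, against 5.86% of those rows. Both shares of the members are 7.69%. Of the 925 Ensembl rows at the oocyte threshold, the members included, 5.30% were higher and 7.14% lower in all 4 biopsies. The members' higher share thus lay below that of the 7002 rows and above that of the 925. These differences in shares were not tested. For rank 1 the direction varied with the oocyte, with a biopsy-to-oocyte ratio of 1.73 for number 2, 0.540 for 3, 0.578 for 6 and 0.887 for 16. Oocyte 2 was the lowest of the 4 oocytes in rank 1, and its biopsy was the only one above its oocyte. Ratios of means were also low for ranks 18 (0.676), 32 (0.733) and 21 (0.754) and high for ranks 22 (1.79) and 5 (1.74), where single pairs differed in direction except for rank 32.

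**Figure D2:**
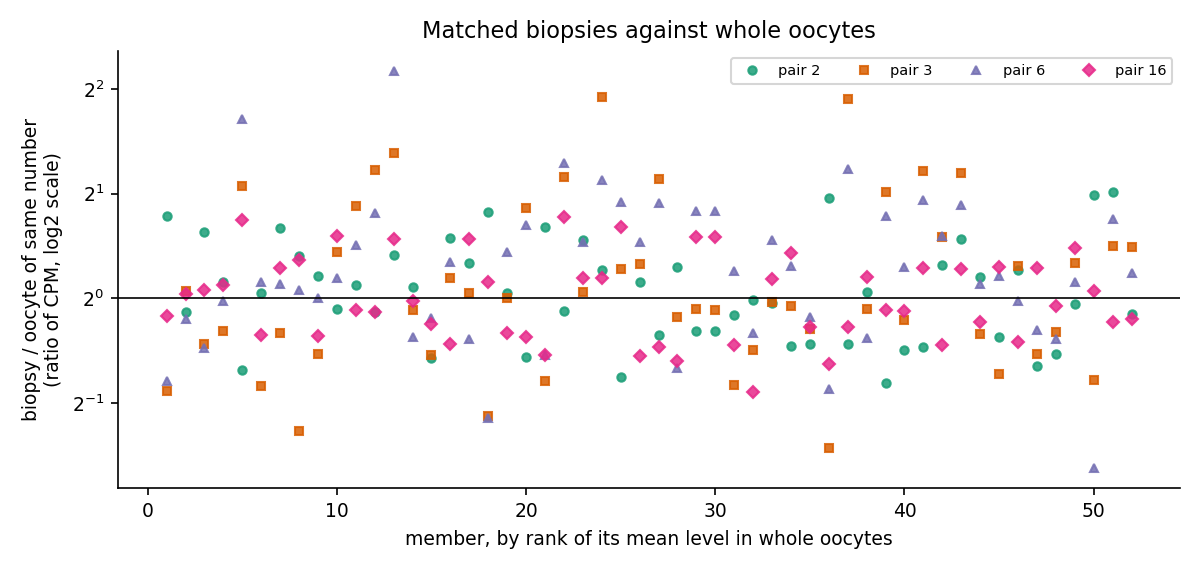
Ratio of CPM in the matched biopsy to CPM in the whole oocyte of the same number (log2 axis) for each of the 52 members, by rank in whole oocytes; the line marks a ratio of 1 and symbols mark the 4 pairs. Ratios of single pairs scatter on both sides of 1, and rank 13 in pair 6 is the highest, at 4.52.

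The order of the members was similar in biopsies and oocytes, paired or not. Spearman correlations over the 52 members between a biopsy and its own oocyte were 0.904, 0.823, 0.794 and 0.884 for numbers 2, 3, 6 and 16. They were 0.646 to 0.853 for the 12 combinations of different numbers. All these points share row length and the selection by oocyte level, and genes are not independent replicates. Biopsies 3 and 6 correlated better with oocyte 16 (0.839 and 0.853) than with their own.

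Between fates, no member passed with edgeR in ooplasm biopsies after adjustment over all rows, and DESeq2 called 1, rank 33. The biopsies were not used by the rule, and all 52 members passed the filter on low counts there. The edgeR quasi-likelihood test called 0 of 52 members higher (0.00% of 21174 rows tested) and 0 lower (0.00%) at an adjusted p under 0.05. At an unadjusted p under 0.05, 6 of 52 members were higher and 2 of 52 lower, beside 2.50% and 2.30% of all rows. Ranks 29 and 30 are both among the 6, have almost the same counts and are not separate cases. The median log2 fold change, blastocyst minus cleavage, was -0.02 over the members and -0.02 over all rows, and 49 of 52 members lay within 1 log2 unit of 0. In 3 members (ranks 10, 33 and 35) all 4 blastocyst biopsies lay above all 4 cleavage biopsies, as in 2.0% of rows (423 of 21174), and in 0 members all lay below, as in 1.52% of rows.

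None of the first 4 members passed between fates in biopsies. Rank 1 stood at 11361 ± 2305 CPM in the blastocyst group and 13260 ± 1359 in the cleavage group (log2 -0.24), and rank 2 at 6364 ± 1283 and 7474 ± 1735 (log2 -0.25). Rank 3 stood at 4875 ± 738 and 3931 ± 969.5 (log2 0.29), and rank 4 at 4160 ± 613 and 3580 ± 767 (log2 0.20; SD, n = 4). The groups overlapped in each of these 4 (edgeR adjusted p = 0.9999 for each).

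Rank 33 (ENSBTAG00000053835) stood apart from the others by the size of its difference. It measured 93.8, 179, 259 and 384 CPM in the blastocyst biopsies B20, B21, D24 and D27. The cleavage biopsies B14, B23, D10 and D29 measured 5.23, 2.56, 26.8 and 46.0 CPM. All 4 blastocyst values thus lay above all 4 cleavage values, and the D-labelled biopsies were the higher ones within each group. The log2 fold change was 3.45 (SE 0.76, n = 4) and did not pass with edgeR (adjusted p = 0.486). DESeq2's Wald test called it (log2 3.44, adjusted p = 0.00330), 1 of 52 members beside 0.440% of rows called higher by that tool. With the label letter as a covariate the log2 fold change was 4.09 (edgeR adjusted p = 0.109); what the letters B and D stand for is not given. Without each library in turn it stayed between 3.07 and 4.20.

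The same row also varied among oocytes of unstated fate. In the matched set it measured 22 CPM in biopsy 2 and 23 CPM in oocyte 2, 732 and 749 CPM for number 3, 409 and 277 CPM for number 6, and 319 and 280 CPM for number 16. Biopsy and oocyte of 1 number were thus close, and number 2 was low in both. Over the 8 fate-grouped biopsies its coefficient of variation was 111%, the highest of the 52 members, and its highest value was 150-fold its lowest.

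Of the other members with the smallest p, rank 10 (ENSBTAG00000004658) measured 1226, 1337, 882 and 1279 CPM in B20, B21, D24 and D27 and 741, 835, 692 and 612 CPM in B14, B23, D10 and D29 (log2 0.72, SE 0.21, edgeR adjusted p = 0.913). The gap between the groups was small, since D24 lay just above B23. Rank 35 measured 341, 344, 335 and 498 CPM against 216, 310, 262 and 199 CPM (log2 0.62, SE 0.22, edgeR adjusted p = 0.990), again with no overlap. Rank 29 measured 800, 803, 348 and 481 CPM against 292, 500, 230 and 208 CPM (log2 1.02, SE 0.32, edgeR adjusted p = 0.937). Its groups overlapped through B23, and rank 30 had almost the same counts.

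Toward lower levels in the blastocyst group the smallest p belonged to ranks 50 and 6. Rank 50 measured 84.4, 129, 120 and 110 CPM against 228, 145, 104 and 207 CPM (log2 -0.63, SE 0.29), and rank 6 measured 1041, 1144, 1435 and 1044 CPM against 1574, 1281, 1413 and 2271 CPM (log2 -0.50, SE 0.23; edgeR adjusted p = 0.9999 for both). The groups overlapped in both rows. Ranks 37, 24 and 27 followed, with log2 fold changes of -0.83, -0.48 and -0.42. Over the 8 biopsies the median coefficient of variation was 28.4% for the members, from 12.1% for rank 20, and 23% for the 873 other Ensembl rows at the oocyte threshold.

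**Figure D3:**
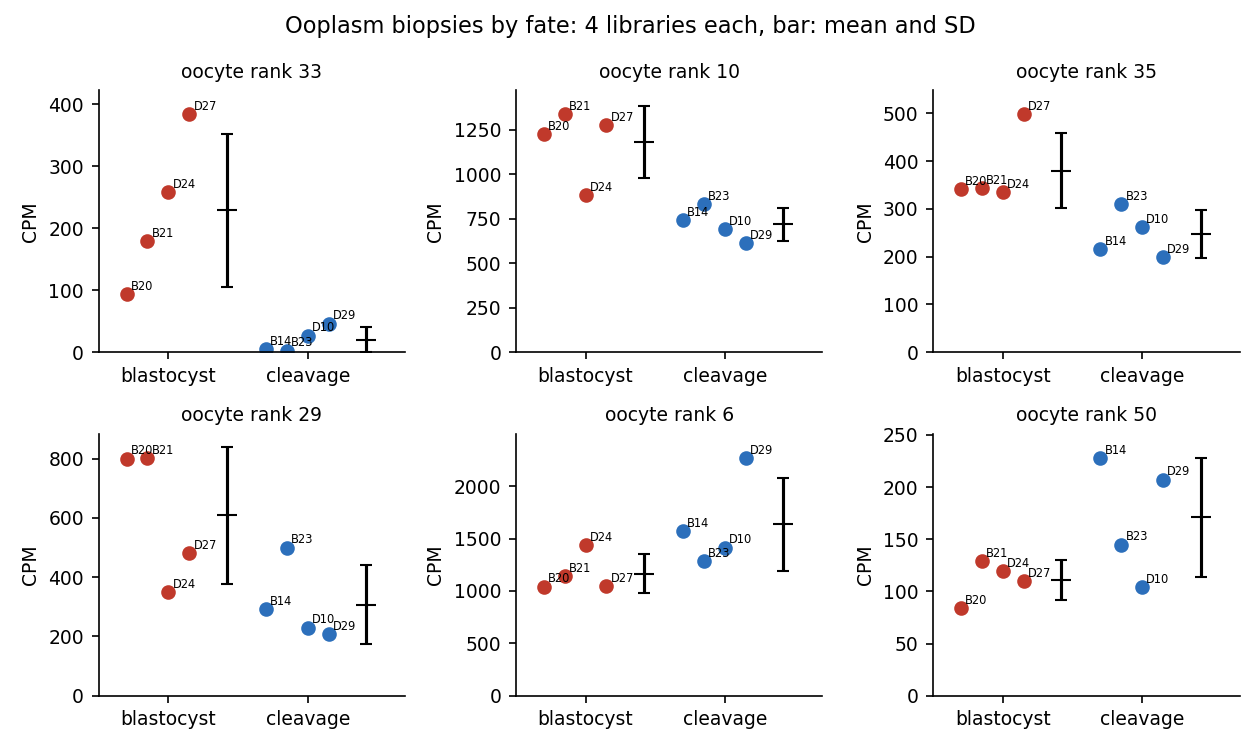
CPM of 6 members in ooplasm biopsies of the blastocyst group (red) and the cleavage group (blue), 1 point per library with its follicle label and a bar for mean and SD (n = 4); each panel has its own axis from 0. For ranks 33, 10 and 35 the groups do not overlap, for ranks 29, 6 and 50 they do, and no member passed with edgeR.

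In granulosa cells the members were present at low levels that differed widely between libraries. Against the biopsies of the same follicles 52 of 52 were lower (edgeR adjusted p of 4.12e-06 or less), beside 30.9% of 28229 rows (23% of 25469 without NONCODE rows), with log2 differences from -12.39 for rank 24 to -4.31 for rank 44 and a median of -8.46. The members were picked for high oocyte levels, and biopsies are ooplasm, so this direction follows the choice of members. Rank 1 differed by -10.40.

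The summed level of the members was 1788, 269, 287 and 832 CPM in the blastocyst libraries B20, B21, D24 and D27. It was 59.3, 96.6, 63.7 and 59.3 CPM in the cleavage libraries B14, B23, D10 and D29. Every blastocyst library lay above every cleavage library, and B20 and D27 were far above B21 and D24. The mean of the blastocyst group was 11.4 times that of the cleavage group, 5.51 times with TMM scaling, 8.17 times without the 5 members highest in granulosa cells and 3.99 times without B20 and D27. Library totals, in units of 1000000 counts, were lowest in B20 (9.88) and D27 (10.8), beside 14.5 to 17.7 in the other granulosa libraries. Whether this bears on the members' levels was not tested. Granulosa libraries are pools of cells, so fewer cells of a type and less RNA per cell cannot be told apart.

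**Figure D4:**
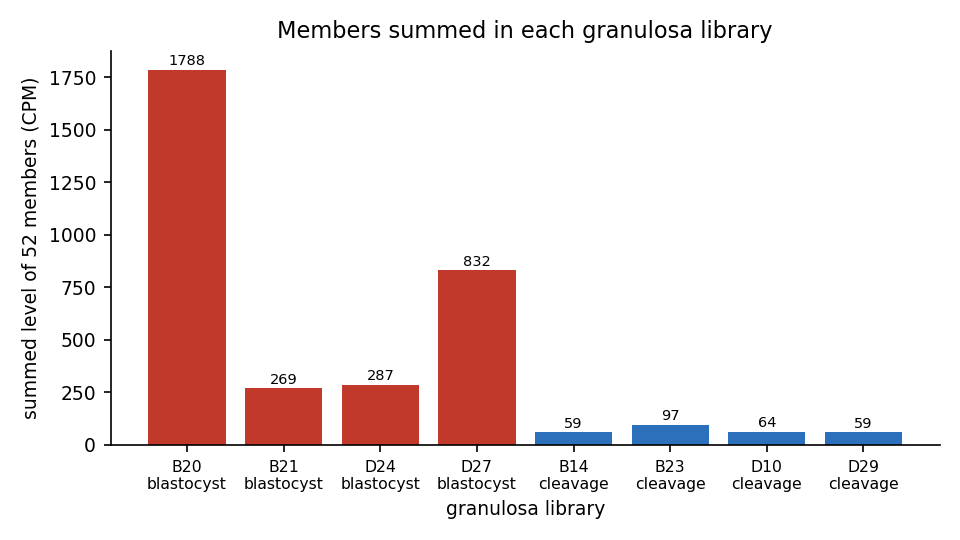
Summed CPM of the 52 members in each of the 8 granulosa libraries, blastocyst group in red and cleavage group in blue, 1 bar per library from 0. The blastocyst libraries range from 269 to 1788 CPM and the cleavage libraries from 59 to 97 CPM.

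By member, granulosa fate differences ran in 1 direction. Of the 52 members, 37 passed the filter on low counts in the granulosa fit, which a row high in the blastocyst libraries alone can pass. Among these 15 were called higher in the blastocyst group, beside 21.3% of 22934 rows, and 0 lower, beside 0.349% (edgeR, adjusted p under 0.05). At an unadjusted p under 0.05, 24 were higher and 0 lower, beside 31.0% and 5.80% of rows. Without the filter edgeR called 17 of 52 higher, 32.7% beside 19.9% of rows. DESeq2's Wald test called 38 of 52 higher, 73.1% beside 35.8% of rows, and 0 lower. With library totals edgeR called 23 members higher (29.8% of rows). All 4 blastocyst libraries lay above all 4 cleavage libraries in 29 of 52 members (55.8%), beside 34.0% of tested rows, and below them in 0, beside 1.65%. These shares are over unlike sets, since the tested rows all passed the filter and 15 of the 52 members did not. For the higher calls of edgeR and DESeq2 the members' share was the larger, and the difference in shares was not tested. Over all tested rows the median log2 difference depended on the scaling, at 0.10 under TMM, 0.48 under the size factors of DESeq2 and 0.70 under library totals.

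Rank 2 had the highest granulosa level and measured 403, 29.6, 55.5 and 121 CPM in B20, B21, D24 and D27 against 5.49, 16.7, 15.7 and 6.85 CPM in B14, B23, D10 and D29. B21 was not far above the highest cleavage library, B23, while B20 was far above it (log2 2.95, SE 0.73, edgeR adjusted p = 0.0190). Rank 10, which had no overlap in biopsies either, measured 35.7, 6.77, 7.43 and 25.6 CPM against 0.113, 0.483, 0.117 and 0.809 CPM (log2 4.92, SE 0.88, edgeR adjusted p = 0.0116). Rank 39 measured 102, 18.6, 16.4 and 49.7 CPM against 0.792, 1.59, 0.117 and 0.0623 CPM (log2 5.42, SE 1.01, edgeR adjusted p = 0.0116). In all 3 rows B20 was the highest library and D27 the next.

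Rank 44 measured 162, 30.5, 19.9 and 78.6 CPM against 1.98, 7.65, 2.22 and 2.43 CPM (log2 3.57, SE 0.71, edgeR adjusted p = 0.0116). Ranks 23 (log2 4.59) and 49 (log2 3.90) passed with the same adjusted p, and rank 38 (log2 4.76) with 0.0250 (edgeR). Rank 48 measured 152, 20.1, 25.9 and 69.3 CPM against 0.0566, 10.3, 0.760 and 1.12 CPM and did not pass (log2 3.63, edgeR adjusted p = 0.0520), and its B23 value stood above those of the other cleavage libraries. Without B23 its log2 fold change was 5.90 (edgeR adjusted p = 0.00122).

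Rank 1, with the most reads of the members in oocytes, did not pass between fates in granulosa cells. It measured 12.2, 20.8, 12.6 and 12.8 CPM against 16.5, 12.1, 9.997 and 8.97 CPM, and the groups overlapped. Its log2 fold change was -0.22 with TMM (edgeR adjusted p = 0.729), 0.07 under the size factors of DESeq2 and 0.30 under library totals, so its direction depended on the scaling. In the cleavage libraries rank 1 (mean 11.9 CPM) and rank 2 (11.2 CPM) were the highest members. In the blastocyst libraries rank 1 (14.6 CPM) stood far below rank 2 (152 CPM), rank 44 (72.8 CPM) and rank 48 (66.9 CPM). Rank 42 had the lowest blastocyst mean, 0.259 CPM against 0.357 CPM. Rank 33, the row with the large difference in biopsies, was at 5.16, 0.125, 1.29 and 2.03 CPM against 0.0566, 0.0690, 0.175 and 0.125 CPM, from 51 counts at most.

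The fate difference itself was compared between tissues by an interaction term, fitted over granulosa cells and biopsies together, a fit that all 52 members entered. Of the 52 members, 20 had a higher fate difference in granulosa cells and 0 a lower one, beside 6.35% and 0.549% of 28229 rows (edgeR, adjusted p under 0.05). At an unadjusted p under 0.05 they numbered 35 and 0, beside 19.5% and 6.52% of rows. The 15 members that failed the granulosa filter entered this fit through their biopsy counts, and 3 of the 20 (ranks 17, 18 and 27) are among them. The median interaction was 2.29 log2 units over the members and 0.15 over all rows. Of the 15 members called in granulosa cells 14 were among these 20. Ranks 39 (5.32, SE 0.90), 23 (4.36, SE 0.89) and 10 (4.04, SE 0.73) were among the largest (edgeR adjusted p = 0.0104, 0.0134 and 0.0113). Calls were as many among ranks 1 to 26 (10) as among ranks 27 to 52 (10). DESeq2's Wald test called 27 of 51 tested higher and 0 lower (14.9% of rows higher), and with the follicle as a replicate block edgeR called 15 (4.71% of rows). With library totals edgeR called 33 (13.2% of rows), with no low-count filter 11 (2.41% of rows) and without NONCODE rows, chosen after seeing the data, 21 (8.03% of rows).

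With edgeR none of the member calls in granulosa cells or in the interaction remained when 2 follicles, B20 and D27, were left out together. B20 was the highest of the 4 blastocyst granulosa libraries for 40 members, and B20 and D27 were the 2 highest for 45. In granulosa cells edgeR called 9 members without B20 (13.4% of rows) and 9 without D27 (10.6% of rows). Without both, an alternative chosen after seeing the data, it called 0 of 23577 rows in granulosa cells and 0 of 29367 in the interaction, members included. At an unadjusted p under 0.05 there were 4602 rows of either direction in granulosa cells, with 10 of 37 members higher and 0 lower. In the interaction there were 3063 rows of either direction, with 20 of 52 members higher and 0 lower. All rows were not split by direction in these fits, so the members' shares have no like share beside them. In that fit of 2 against 4 libraries rank 10 had a log2 fold change of 3.97 and rank 39 of 4.52 in granulosa cells (edgeR adjusted p = 0.143 for both).

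Granulosa levels of the members did not follow their oocyte levels. In B20 the members stood at a median of 1.64% of their mean whole-oocyte CPM, but single members ranged from 0.0349 to 67.0%. The medians were 0.324, 0.446 and 1.2% in B21, D24 and D27 and 0.0371, 0.154, 0.0404 and 0.0536% in the cleavage libraries B14, B23, D10 and D29. Spearman correlations over the 52 members between granulosa and mean oocyte CPM were -0.13 to -0.01 in the blastocyst libraries and 0.02 to 0.21 in the cleavage libraries. Restriction to 52 rows of high oocyte level narrows the range behind these values.

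The members were ordered much alike by granulosa level in the blastocyst libraries. Spearman correlations between 2 of these libraries were 0.844 to 0.937, while those between 2 cleavage libraries, where many members had few counts, were 0.341 to 0.547. Between a blastocyst and a cleavage library they were 0.335 to 0.726. All these points share row length. Over the members, a granulosa library correlated with the biopsy of its own follicle at a mean of 0.195 and with other biopsies at a mean of 0.181 (8 and 56 pairs, ranges -0.0315 to 0.456 and -0.0630 to 0.406).

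When all Ensembl rows under 1 CPM in cumulus cells were grouped by oocyte level, the highest median granulosa levels did not belong to the members. Single members could lie far above these medians, with rank 2 at 403 CPM in B20. Rows of 50 to 100 CPM in whole oocytes (95 rows) had a median granulosa level of 38.6, 5.71, 5.65 and 17.5 CPM in B20, B21, D24 and D27. The members had 8.71, 2.13, 2.46 and 7.49 CPM in the same libraries, and rows of 100 to 200 CPM in oocytes (49 rows) lay between in each of the 4. Interaction calls were made for 62.1% of the rows at 50 to 100 CPM, 53.1% at 100 to 200 CPM, 47.7% at 10 to 50 CPM (438 rows) and 6.49% under 0.1 CPM, each as a share of the rows that entered the joint fit (2651 of 9977 in the lowest class and all rows in the other 3). For the members the share was 38.5%. In the cleavage libraries the highest of these medians was 1.655 CPM, in B23.

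**Figure D5:**
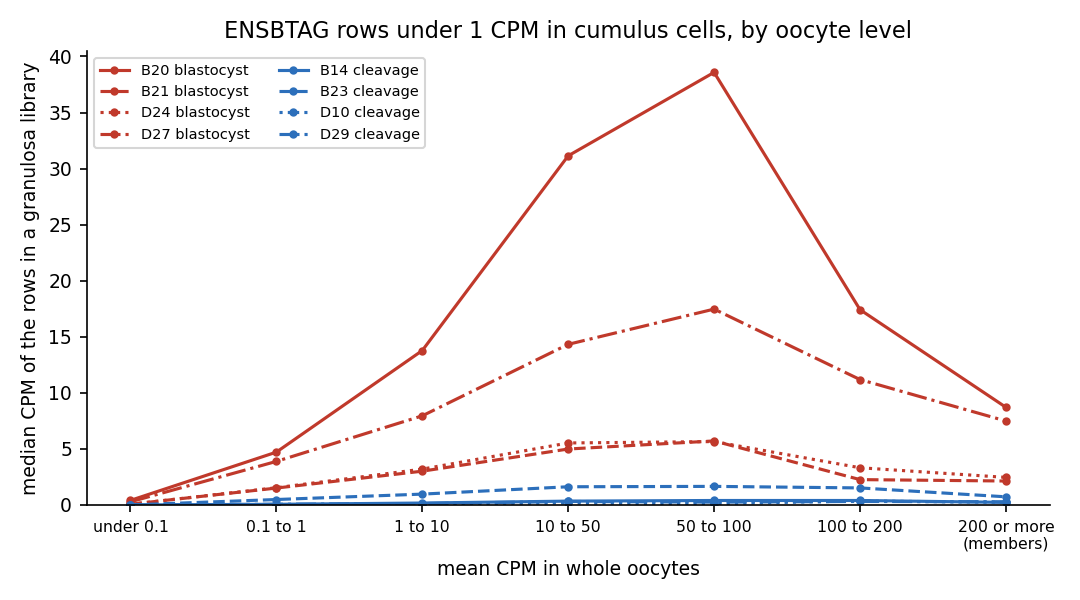
Median CPM in each granulosa library (lines; red for the blastocyst group, blue for the cleavage group) of Ensembl rows under 1 CPM in cumulus cells, grouped by their mean CPM in whole oocytes. In the 4 blastocyst libraries the medians rise up to the rows of 10 to 100 CPM in oocytes and are lower again in the 52 members, from 38.6 to 8.71 CPM in B20.

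Other measures of the granulosa libraries moved with the members' sum. Rows with at least 5 counts numbered 26373 to 28629 in the blastocyst group and 18065 to 22039 in the cleavage group. The 69 odorant, taste and vomeronasal receptor rows under symbols, genes of sensory cells, summed to 103, 12.3, 17.4 and 40.6 CPM in B20, B21, D24 and D27 and to 0.234 to 2.28 CPM in the cleavage libraries, highest in B23. B20, D27 and, within the cleavage group, B23 were also the libraries with the highest members' sums. H1FOO measured 34.2, 9.66, 5.83 and 19.1 CPM against 0.396, 5.10, 0.234 and 0.498 CPM in B14, B23, D10 and D29 (log2 2.69, edgeR adjusted p = 0.0877). Its counts ran close to those of rank 12, so it is not a measure separate from the members. The part of these measures in the members' difference was not tested. In cumulus cells 0 of 52 members passed the filter on low counts. Without that filter edgeR tested 41 between fates and called 0, beside 22 of 26278 rows called higher (0.0837%) and 161 called lower. At an unadjusted p under 0.05, 0 members were higher and 1 lower (smallest edgeR adjusted p = 0.272).

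Another 17 LOC and symbol rows met both thresholds, 5 of them with a symbol in the file. A further 42 NONCODE rows did so with 0 counts in granulosa and cumulus cells, where NONCODE rows had hardly any. In biopsies 0 of the 59 passed between fates with edgeR and 0 with DESeq2. At an unadjusted p under 0.05 with edgeR 10 were higher and 2 lower, beside 2.50% and 2.30% of all rows. Of the 17, 9 had a higher interaction (edgeR, adjusted p under 0.05), beside 6.35% of 28229 rows. LOC100848540, among the called rows, ran close to rank 16 in ooplasm, and H1FOO, which was not called, ran close to rank 12. In ooplasm these rows are therefore not separate from the members. In granulosa cells H1FOO had 887 counts beside 772 for rank 12, while LOC100848540 had 892 beside 115 for rank 16. Rank 16 itself was not called (interaction 2.14, edgeR adjusted p = 0.138). TDRD15, a germ cell Tudor domain protein, stood at 1001 ± 429 CPM in whole oocytes and in granulosa cells at 38.5 ± 34.96 against 1.21 ± 1.60 CPM (interaction 3.91, edgeR adjusted p = 0.0266). NELL1, a secreted protein, stood at 262 ± 140 CPM in whole oocytes and at 408 ± 378 against 8.37 ± 9.13 CPM in granulosa cells, above its 161 ± 46.4 CPM in blastocyst biopsies (interaction 5.07, edgeR adjusted p = 0.0104). BCL2L10, an oocyte member of the BCL2 family, stood at 1489 ± 608 CPM in whole oocytes and at 0.930 ± 0.597 against 0.872 ± 0.648 CPM in granulosa cells (interaction -0.77, edgeR adjusted p = 0.536). The 17 rows had blastocyst granulosa means from 0.0693 to 408 CPM.

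Of the 15 listed oocyte and follicle genes that could be found, 12 were tested between fates in biopsies and 0 passed with edgeR, 0 of them at an unadjusted p under 0.05, and 0 with DESeq2. In granulosa cells 12 were tested, 3 were higher in the blastocyst group and 0 lower (edgeR, adjusted p under 0.05), a share near the 21.3% of all rows called higher. RNF17, a Tudor domain protein of germ granules, rose to 40.8 ± 33.2 against 2.06 ± 1.27 CPM (log2 3.53, edgeR adjusted p = 0.0116) and was the 1 of 14 tested with a higher interaction (3.82, edgeR adjusted p = 0.0121). TDRD12, a factor of piRNA formation, rose to 16.9 ± 14.6 against 1.46 ± 1.51 CPM (edgeR adjusted p = 0.0459). It was not restricted to oocytes here, at 2.33 CPM in whole oocytes and 3.99 CPM in cumulus cells. MEIKIN, a meiotic kinetochore protein, rose to 56.4 ± 43.4 against 12.1 ± 0.994 CPM (edgeR adjusted p = 0.0427). In granulosa cells H3F3A (log2 -1.18), FBXW12 (log2 -1.32) and MAD2L1 (log2 -0.49) were lower in the blastocyst group and did not pass. The other tested rows of the lists had log2 fold changes above 0.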

How the data were processed

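Per the labels' protocols, the SMART-Seq HT kit gave the cDNA and Nextera XT the RNA libraries. Reads were trimmed, aligned and counted with tools among which Trim Galore, cutadapt, STAR and featureCounts are named, per the submitters' processing notes; versions are not listed there, and the genome build is not given in the sources used here. Whole-number counts per row, as the authors deposited them, entered every analysis. The polar body file has 24 columns of values that carry no sample name, and these were left out.

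CPM use library totals without further scaling. Each comparison was fitted on its whole table with edgeR 4.0.16 in R 4.3.3 (filterByExpr, TMM, robust quasi-likelihood F test) and called at a Benjamini-Hochberg adjusted p under 0.05 over all tested rows. The SE beside an edgeR log2 fold change is its absolute value over the square root of the F statistic. It is not a directly estimated standard error. As a second tool, the Wald test of DESeq2 1.42.0 was run without that filter. Tables and figures were made in Python 3.11.15 with pandas 2.3.3 and matplotlib 3.10.9. The tests were tried on simulated counts. A RefSeq gene table of ARS-UCD2.0 gave names for LOC rows only.

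The members, lists and comparisons were chosen with earlier results of these data known. Members named are the 10 highest in oocytes, the 5 of smallest p per direction between fates in biopsies and granulosa cells, the 5 highest in granulosa cells, and those at the thresholds or at the extremes of the matched ratios. Ranks 12, 15, 16, 17, 20 and 42, the rows beside them, TDRD15, NELL1, BCL2L10, H3F3A, FBXW12 and MAD2L1 were named after their values were seen.

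Granulosa and biopsy libraries are paired by follicle in the labels. Their deviations from group means correlated at -0.0181 to 0.111 in 8 same-label pairs and -0.136 to 0.145 in 56 other pairs, so the pairing rests on the labels. No 2 replicates of a group agreed within counting noise, since chi-square over its degrees of freedom was at least 4.70.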

Additional observations from a re-analysis of the deposited data

Results flagged for a closer look

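Among 128 groups of 4 libraries looked at, 12 held a library far from the other 3, where chance gives about 1 in 20. In granulosa cells of the cleavage group this was B23 each time, at 0.621 CPM for both rank 29 and rank 30, 7.65 CPM for rank 44, 10.3 CPM for rank 48, 3.03 CPM for rank 38 and 96.61 CPM for the summed level. Ranks 29 and 30 have almost the same counts and are not separate cases. In granulosa cells of the blastocyst group B21 stood at 20.8 CPM for rank 1. In biopsies D27 stood at 498 CPM for rank 35, B14 at 273 CPM for rank 44 and D29 at 146 CPM for rank 48. Whole oocyte 2 stood apart at 465 CPM for rank 29 and 464 CPM for rank 30.

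By the interaction term, the fate difference in granulosa cells exceeded that in biopsies for 20 members (edgeR). The named ones were rank 10 at 4.04, rank 39 at 5.32, rank 49 at 3.85, rank 23 at 4.36, rank 44 at 3.49, rank 2 at 3.06 and rank 38 at 4.12 log2 units.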

How the results depend on the processing

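The number of members was 101 with an oocyte threshold of 100 CPM, 26 with 400 CPM, 88 with TMM scaling of the rule, and 50 to 56 without each oocyte in turn. In biopsies DESeq2 called 1 member, and edgeR 0 under each other alternative run, leaving out each library included. In granulosa cells 38 members were called with DESeq2, 23 with library totals, 9 to 22 without each library in turn (9 both without B20 and without D27) and 0 without B20 and D27 together. Over all rows 4884 were higher with edgeR and 11059 with DESeq2. The interaction gave 33 calls with library totals, 11 with no low-count filter and 0 without B20 and D27. With the follicle as a replicate block it gave 15, rank 2 was lost (edgeR adjusted p = 0.0654), rank 48 passed (edgeR adjusted p = 0.0305), and 52 members stayed lower in granulosa cells than in biopsies. The summed granulosa ratio was 6.64 to 13.9 without each library in turn. The matched biopsy-to-oocyte ratio of the sums was 0.954, 0.811 with TMM and 0.910 to 1.03 without each pair in turn. For rank 1 the granulosa log2 fold change turned from -0.22 to 0.0567 with DESeq2, 0.0654 with its size factors, 0.30 with library totals and 0.22 without B20 and D27, and ranged from -0.687 to 0.0692 without each library in turn, the highest without B20. Its interaction turned from -0.16 to 0.52 with library totals and 0.18 without B20 and D27. The cause of these changes was not tested. Without NONCODE rows, chosen after seeing the data, calls were 0 in biopsies, 15 in granulosa cells, 21 in the interaction and 52 against biopsies. Of 519 alternative values in all, 465 kept their direction and call or moved little. Another 19 lost and 15 gained a call in the same direction, 13 counts or values moved and 7 turned direction. The limit for little movement was wide. A summed granulosa ratio of 3.99 without B20 and D27, beside 11.4, was within it, as were 22 granulosa calls without B23, beside 15. The 465 also include cumulus fits with 0 members tested, so this tally is not a measure of stability. Members near 0 counts in granulosa cells are limited by depth.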
